A study of Mus musculus with 12 samples.

Results

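The promoters of zinc finger protein (Zfp) genes were examined in microglia of WT and Cx3cr1-KO mice with 2 chromatin measurements, RNA polymerase II and H3K27ac. Members were all peaks whose nearest annotated gene has a symbol of Zfp followed by a digit and whose centre lies at most 1000 bp from its transcription start site (TSS). The tristetraprolin family (Zfp36, Zfp36l1, Zfp36l2 and Zfp36l3), which binds RNA with a different kind of finger, was left out. The RNA polymerase II table gave 242 member peaks at 208 genes, out of 10125 peaks within 1000 bp of a TSS and 26706 peaks in all. The H3K27ac table gave 284 member peaks at 275 genes, out of 9905 peaks near a TSS and 55862 in all. Together they cover 291 Zfp genes. The rule goes by name alone: 284 of these genes had an annotated protein, and 280 had at least 1 match to a zinc finger. Members needed a called peak in WT or KO, so measured signal helped decide which genes are included. No other measured value entered the rule.

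Microglia came from 2-mo-old C57BL/6J mice and were fixed and sorted as CD11b+CD45lo cells. WT mice carry both copies of Cx3cr1, the receptor for fractalkine, and KO mice carry the eGFP gene in place of both (Cx3cr1 eGFP/eGFP), so that KO cells are also the only cells expressing eGFP. Each ChIP-seq library came from a pool of 3 mice of 1 sex. A female-labelled and a male-labelled pool were made per genotype, so each mark has n = 2 WT pools and n = 2 KO pools. ChIP-seq recovers and sequences the DNA bound by an antibody's target, here Rpb2, a core subunit of RNA polymerase II, or histone H3 acetylated at lysine 27 (H3K27ac), a modification of active promoters and enhancers. In sorted pools, fewer cells carrying a mark and less of it per cell cannot be told apart.

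Most Zfp genes encode C2H2 zinc finger proteins. In these proteins, tandem fingers each hold a zinc ion between cysteines and histidines and read a few bases of DNA. Many of them also carry a KRAB box, which recruits the corepressor TRIM28 and, through it, the histone methyltransferase SETDB1, heterochromatin proteins and DNA methylation; these KRAB zinc finger proteins silence transposable elements and guard imprinted genes. The family has grown by repeated tandem duplication, so many members lie side by side in clusters and resemble each other in sequence, and their promoters are generally active at modest levels in many tissues rather than in one cell type.

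Libraries held between 10395804 and 44332626 reads, and peaks held 11.2% to 15.1% of the reads of the 4 Rpb2 libraries. For H3K27ac, this share was 61.1% to 65.3% in 3 libraries and 15.9% in WT female. Of Y-linked reads, 136 fell in the Rpb2 library whose label is WT female, against 214 in WT male, 266 in KO male and 0 in KO female, which goes against that label; it is called the library labelled WT female here. H3K27ac libraries held 0, 281, 0 and 656 such reads in WT female, WT male, KO female and KO male, as their labels say. All 10 microglial marker genes examined had an Rpb2 peak within 1000 bp of their TSS. None of them had an H3K27ac peak centred there, although each had H3K27ac peaks assigned to it elsewhere. Defining markers of neurons, astrocytes and lymphocytes had no promoter peak of either mark. Those of oligodendrocytes and endothelial cells had 1 of 5 (Mbp) and 2 of 5 (Kdr and Pecam1) for Rpb2, where they summed to between 29.5 and 141.2 and between 56.2 and 115.7 CPM of promoter reads, against 3415 to 3432 for the microglial list. For H3K27ac it was 2 of 5 (Mbp and Mog, 86.8 to 120.7) and 1 of 5 (Pecam1, 83.3 to 128.3). Peaks elsewhere were looked for at the microglial list only, so H3K27ac does not set that list apart from the others here. The part of other cell types in the levels below was not tested.

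Zfp promoters differed in base composition between genes with and without a match to a KRAB pattern in their protein. Fingers were counted in the longest annotated protein of each gene, and a short KRAB A-box pattern was looked for; 113 member genes matched it, 171 did not and 7 had no protein to examine. A missed pattern does not show that the box is absent. Known KRAB genes such as Zfp69 and Zfp708 were not matched, so the group without the pattern is mixed in every comparison below. In the 300 bases around the TSS (250 before and 50 after), the CG dinucleotide, the target of DNA methylation, occurred a median of 11 times at promoters of genes with the KRAB pattern and 19 times at those without it. All genes with a promoter peak in these tables had a median of 20, and all 32851 promoters of the RefSeq table had 7. The following 6 promoters belong to the Zfp peaks with the lowest p between KO and WT described below, the first 3 from genes without the pattern and the last 3 from genes with it. They were picked after their CG numbers were seen, to show the range of composition, and are not evidence of the difference. Each is the 250 bases before the TSS, 5′ to 3′ on the gene's strand, from RefSeq in GRCm38.p6, and capitals mark every match to 1 of 9 short motifs on either strand.

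Zfp326, chr5:105876318-105876567, plus strand: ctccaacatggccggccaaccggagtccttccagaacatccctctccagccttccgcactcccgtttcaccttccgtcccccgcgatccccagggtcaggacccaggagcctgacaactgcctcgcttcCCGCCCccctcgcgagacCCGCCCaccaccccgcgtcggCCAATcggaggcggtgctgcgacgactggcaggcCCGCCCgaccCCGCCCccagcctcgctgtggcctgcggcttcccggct
Zfp217, chr2:170131221-170131470, minus strand: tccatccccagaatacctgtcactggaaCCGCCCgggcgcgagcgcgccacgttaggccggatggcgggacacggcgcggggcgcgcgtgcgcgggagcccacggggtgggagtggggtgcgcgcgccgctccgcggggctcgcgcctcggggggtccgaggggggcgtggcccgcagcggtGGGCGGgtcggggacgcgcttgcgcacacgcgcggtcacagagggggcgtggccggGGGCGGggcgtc
Zfp131, chr13:119790733-119790982, minus strand: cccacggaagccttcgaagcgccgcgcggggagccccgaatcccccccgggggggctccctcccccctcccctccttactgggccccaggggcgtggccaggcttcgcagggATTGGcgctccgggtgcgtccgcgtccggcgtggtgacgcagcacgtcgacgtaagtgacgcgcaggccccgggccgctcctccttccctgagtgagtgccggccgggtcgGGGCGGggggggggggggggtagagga
Zfp994, chr17:22225615-22225864, minus strand: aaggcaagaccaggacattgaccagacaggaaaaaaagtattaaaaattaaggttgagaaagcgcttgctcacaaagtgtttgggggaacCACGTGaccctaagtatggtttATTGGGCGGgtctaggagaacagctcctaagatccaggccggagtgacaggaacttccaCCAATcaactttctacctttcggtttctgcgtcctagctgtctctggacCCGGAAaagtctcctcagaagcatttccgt
Zfp871, chr17:32788288-32788537, minus strand: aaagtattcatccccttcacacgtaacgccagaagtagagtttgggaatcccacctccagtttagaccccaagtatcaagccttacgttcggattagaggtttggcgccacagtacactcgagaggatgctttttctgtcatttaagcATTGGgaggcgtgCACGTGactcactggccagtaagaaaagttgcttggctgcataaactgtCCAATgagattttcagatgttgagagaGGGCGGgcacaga
Zfp128, chr7:12880928-12881177, plus strand: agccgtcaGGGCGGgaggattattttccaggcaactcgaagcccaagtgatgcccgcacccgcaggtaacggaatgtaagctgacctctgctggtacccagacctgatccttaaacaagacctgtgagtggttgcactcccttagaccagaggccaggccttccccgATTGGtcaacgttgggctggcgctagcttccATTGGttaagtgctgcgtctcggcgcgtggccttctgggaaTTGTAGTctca

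The first 3 hold 25, 43 and 29 CG dinucleotides in these 250 bases and the last 3 hold 8, 9 and 13. Other promoters of these lowest-p genes lay within that range: without the pattern, Zfp69 held 27, Zfp597 15, Zfp668 13, Zfp580 12, Zfp420 10 and Zfp113 9, and with it, Zfp619 held 16 and Zfp712 13. The motifs searched, on both strands, were GGGCGG (the GC box of Sp1-type factors), CCGGAA (the core of ETS sites), CCAAT (bound by NF-Y), TATAAA (the TATA box), CACGTG (an E box), TGACGTCA (a cAMP response element), GCGCATGCG (NRF1), AAGATGGCG (YY1) and ACTACAA (found in sites of the Zfp143 protein itself). Matches may overlap, as the CCAAT match ATTGG and the GC box do in the Zfp994 promoter. The GC box was present in 33.6% of the 116 promoters of genes with the KRAB pattern and 53.1% of the 177 promoters of the other member genes, against 62.3% of promoters of all genes with a peak and 35.7% of all promoters. CCAAT and CCGGAA went the other way. CCAAT was in 55.2% of promoters with the KRAB pattern and 38.4% of the others, against 37.6% for all genes with a peak and 37.4% of all promoters. For CCGGAA the shares were 46.6% and 31.1%, against 27.6% and 14.9%. The other 6 motifs were each in under 8% of Zfp promoters. A match describes letters only, and shares were not tested.

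Of 390 protein-coding Zfp genes in the GENCODE annotation, 284 (72.8%) had a promoter peak of at least 1 mark. Member genes were concentrated on few chromosomes: 75 of 291 lay on chromosome 7, 35 on chromosome 17 and 34 on chromosome 13, which makes 49.5% of them. Clusters, defined as 3 or more member genes with at most 500 kb between neighbouring peaks, numbered 26 and held 168 genes. The largest lay on chromosome 13 between 67060220 and 67814657 (mm10), where 22 genes from Zfp712 to Zfp273 had a promoter peak and 14 had both marks. Next came 18 genes from Zfp160 to Zfp13 on chromosome 17 (21008153 to 23600689), with 11 in both, and 15 genes from Zfp84 to Zfp146 on chromosome 7 (29766882 to 30169816), with 7 in both.

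**Figure D1:**
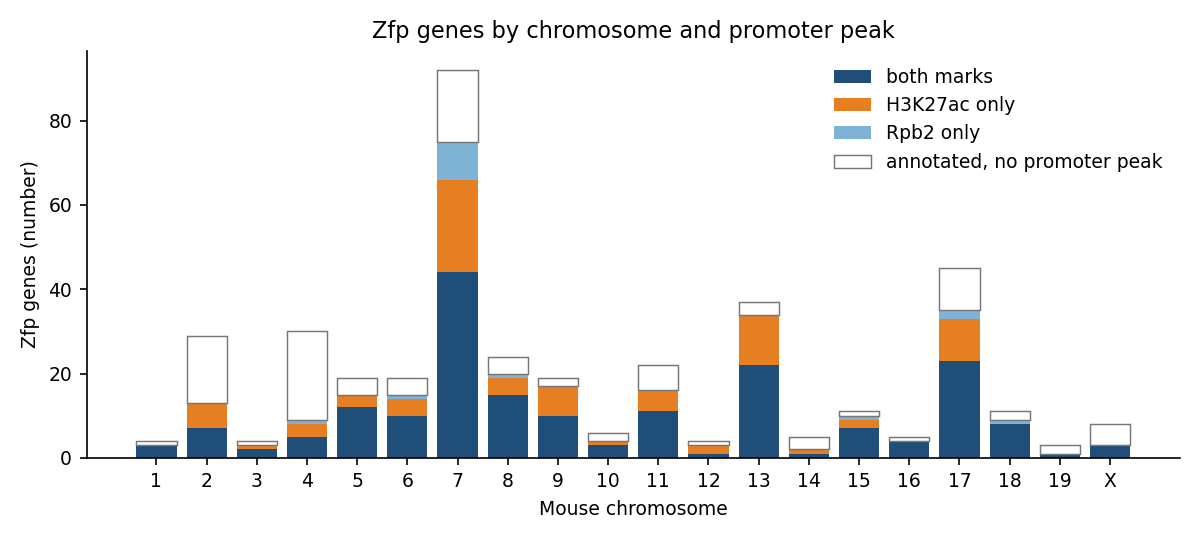
Number of Zfp genes (y axis) on each mouse chromosome (x axis), split into genes with a promoter peak of both marks, of 1 mark alone, and annotated genes with none. Chromosome 7 carries 75 of the 291 genes with a peak, while most of those annotated on chromosomes 2 and 4 have none.

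Genes without a peak were frequent on chromosomes 2 and 4, where 16 of 28 and 21 of 30 annotated Zfp genes had none. Only uniquely mapped reads were counted, so the share of 51-base words that occur once in the genome was measured at each promoter. Where a promoter sequence was known, the median over genes without a peak was 9.2% on chromosome 2 (14 genes) and 60.0% on chromosome 4 (13 genes), and over genes with a peak every word was unique at the median on both. Across all chromosomes, 18 of 42 promoters of KRAB-pattern genes without a peak had under 50% unique words, against 3 of 100 with a peak. Of genes without the pattern, it was 3 of 38 promoters without a peak and 1 of 142 with one. Over all 80 promoters of Zfp genes without a peak, 21 were under 50%, while the median was fully unique. The part of mapping in these missing peaks was not tested. Within members, 225 of 242 Rpb2 peaks and 165 of 284 H3K27ac peaks consisted entirely of unique words, and 8 and 36 were under 90%. The lowest were Zfp119b for Rpb2 (55.6%) and Zfp433 for H3K27ac (22.2%).

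Both marks were found at 192 Zfp genes, H3K27ac alone at 83 and Rpb2 alone at 16. A gene with an H3K27ac promoter peak therefore also had an Rpb2 promoter peak in 69.8% of Zfp genes, and in 70.2% of all genes. In the reverse direction, 92.3% of Zfp genes with Rpb2 had H3K27ac, against 80.0% of all genes. All 242 member Rpb2 peaks overlapped some H3K27ac peak, as did 98.2% of all Rpb2 peaks near a TSS. The 16 genes with Rpb2 alone all lay within an acetylated region centred more than 1000 bp away or assigned to a neighbour. For Zfp710, this region was 62.9 kb wide, for Zfp740 15.5 kb and for Zfp691 13.4 kb. H3K27ac alone was the case at genes of low acetylation, with a median level of 7.26 CPM per kb of peak against 12.5 where Rpb2 was also found. CPM per kb is the usual library-size-scaled count of a peak (CPM, over reads in tested peaks, with TMM factors) divided by the width of the peak, averaged over the 4 libraries. When all genes were ranked by that level into 5 groups of equal size, Rpb2 was found at 13 of 41 Zfp genes in the lowest group and at 41 of 45 in the highest. Over all genes, it was found at 23.3% and 90.6%.

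The median Rpb2 level of Zfp promoters was below that of genes in general, while the H3K27ac medians over the 4 libraries were 11.0 and 11.1. With 1 peak per gene, the Rpb2 level had a median of 207.3 CPM per kb at 208 Zfp genes and 307.2 at all 8350 genes, and 40.4% of Zfp genes lay below the lower quartile of all genes while 13.5% lay above the upper quartile. This held in each library: the Zfp median was 205.6 in the library labelled WT female, 216.1 in WT male, 226.6 in KO female and 199.7 in KO male, against 294.8 to 310.7 for all genes. The pools of both genotypes thus overlapped for Zfp genes. The H3K27ac level had a median of 11.0 CPM per kb at 275 Zfp genes and 11.1 at all 9520 genes. By library, the Zfp median was 13.4 in WT female, 9.26 in WT male, 10.8 in KO female and 10.3 in KO male, against 12.1, 10.0, 11.3 and 10.9 for all genes. Zfp genes were thus above all genes in WT female, the library with few reads in peaks, and below them in the other 3. Acetylated regions were narrower, with a median width of 1499 bp at Zfp promoters against 1819 bp for all genes. Among other zinc finger families, the 27 Zbtb genes, whose proteins pair fingers with a BTB domain, had a median Rpb2 level of 298.6 CPM per kb, and the 12 Zscan and Zkscan genes, which carry a SCAN domain, had 241.5.

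**Figure D2:**
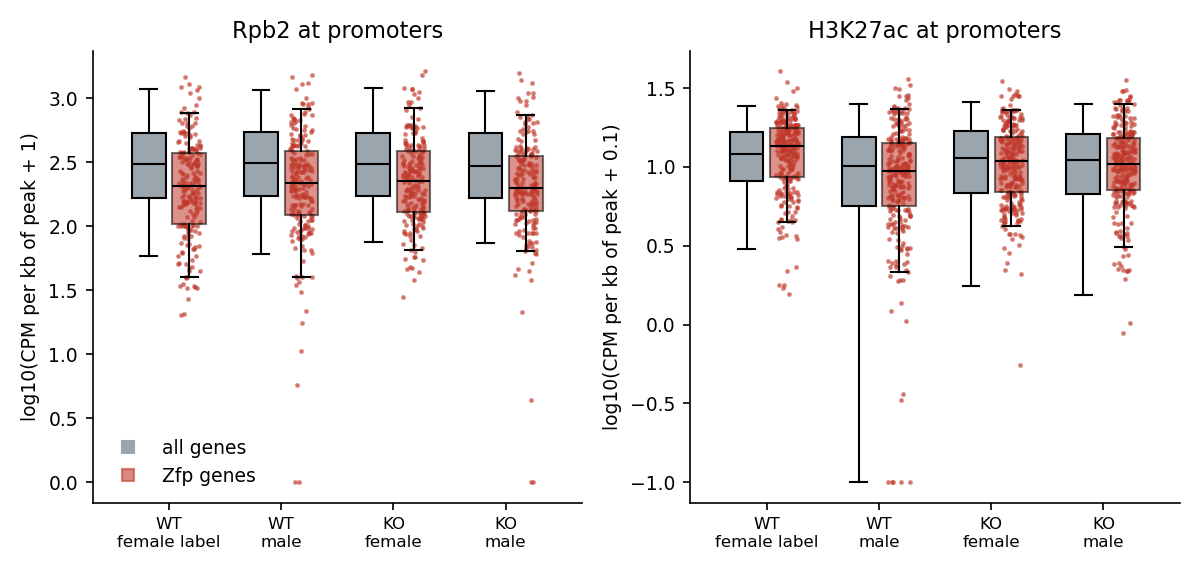
Rpb2 (left) and H3K27ac (right) at promoters in each of the 4 libraries (x axis), as log10 of CPM per kb of peak plus a constant of 1 or 0.1 (y axis), with 1 peak per gene. Grey boxes show all genes and red boxes and points Zfp genes (box, quartiles; line, median; whiskers, 5th to 95th percentile); the Zfp boxes for Rpb2 lie lower in all 4 libraries.

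Within the family, genes with the KRAB pattern had the lower levels of both marks. Their median Rpb2 level was 190.1 CPM per kb over 75 genes, against 244.9 over 128 genes without it. Their median H3K27ac level was 10.3 over 109 genes against 11.7 over 159, and the acetylated region was 1306 bp wide against 1735 bp. An Rpb2 promoter peak was found at 66.4% of member genes with the pattern and 74.9% of those without. By position, genes outside clusters had a median Rpb2 level of 256.7 (93 genes) and those in clusters 200.4 (115 genes). For genes without the pattern, it was 280.6 outside (73 genes) and 206.3 in clusters (55 genes). Genes with the pattern had 194.1 outside (16 genes) and 190.1 in clusters (59 genes), and their H3K27ac level was 8.91 outside and 10.4 in clusters. The number of fingers gave 269.0 for genes with 0 to 4 fingers, 272.2 for 5 to 9, 176.4 for 10 to 14 and 207.2 for 15 or more.

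The CG number of the promoter also moved with the level of both marks. Zfp genes were split into 3 groups by the CG number of their promoter. With at most 11 dinucleotides, 61.4% of 88 genes had an Rpb2 peak, with a median level of 158.0 CPM per kb. With 12 to 19, it was 72.7% of 77 genes and 228.0, and with more than 19, 83.8% of 80 genes and 237.5. All genes with a promoter peak, split at the same numbers, had an Rpb2 peak in 58.5%, 77.1% and 80.6%, so this share also rose with CG number in general. Their median Rpb2 levels were 256, 301 and 329, so the Zfp levels were lower in each group. H3K27ac at Zfp genes rose from 9.97 to 11.2 and 12.5 CPM per kb, against 8.44, 11.3 and 12.2 for all genes. The KRAB pattern and CG number overlap, since 52 of 100 genes with the pattern fell into the low group and 14 into the high group. In the low group, the median Rpb2 level was 154.7 CPM per kb with the pattern (32 genes) and 183.9 without (20 genes). In the middle group, it was 246.5 (23 genes) against 223.9 (33 genes), and in the high group it was 216.6 (12 genes) against 249.7 (55 genes).

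The 5 Zfp genes with the highest Rpb2 level were Zfp568, Zfp658, Zfp207, Zfp69 and Zfp963. Zfp568, a KRAB protein that silences a placental promoter of Igf2, had a count of 194 in the library labelled WT female, 275 in WT male, 954 in KO female and 454 in KO male. Its level was 1446 CPM per kb, at percentile 97.3 of all genes. Zfp207, a microtubule-binding protein needed for chromosome alignment in mitosis, held 206, 307, 809 and 430 reads in the same order, or 1338 CPM per kb. Both KO pools of Zfp568 were above both WT pools after normalization, and those of Zfp207 overlapped. Zfp658 had 1388, Zfp69 1221 and Zfp963 1077 CPM per kb. At the other end, Zfp791, Zfp109, Zfp53, Zfp763 and Zfp105 had between 49.8 and 64.3 CPM per kb. Their reads ran from 0 to 21 in WT pools and from 27 to 113 in KO pools, and all 5 peaks were on the KO peak list alone.

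For H3K27ac, the highest levels belonged to Zfp90, Zfp869, Zfp335, Zfp687 and Zfp263. Zfp90, whose protein has the KRAB pattern, held 320 reads in WT female, 590 in WT male, 1199 in KO female and 910 in KO male, or 33.5 CPM per kb, at percentile 99.7 of all genes. Zfp335, a subunit of histone methyltransferase complexes required by neural progenitors and T cells, held 458, 878, 2108 and 1992 reads over an acetylated region of 5297 bp, or 27.8 CPM per kb. Zfp960, Zfp61, Zfp772, Zfp433 and Zfp442 were lowest, with 1.92 to 3.15 CPM per kb. Zfp433 held 8, 7, 23 and 14 reads and Zfp442 held 7, 3, 37 and 13, so that their levels rest on few reads. In 4 of these 5 peaks the share of unique words was between 22.2% and 78.1%.

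Across the 192 Zfp genes with both marks, the Rpb2 and H3K27ac levels rose together, with a Spearman's rho of 0.66 and a Pearson's r of 0.65 on the log2 scale. Over all 6680 genes with both, these were 0.57 and 0.57. The correlation runs across genes, which are not independent replicates, and both marks were measured on the same strain and cell type, with depth and base composition shared within a library. The median ratio of the Rpb2 level to the H3K27ac level was 18.6 at Zfp genes and 23.6 at all genes, and within the family 18.2 with the KRAB pattern and 19.3 without.

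**Figure D3:**
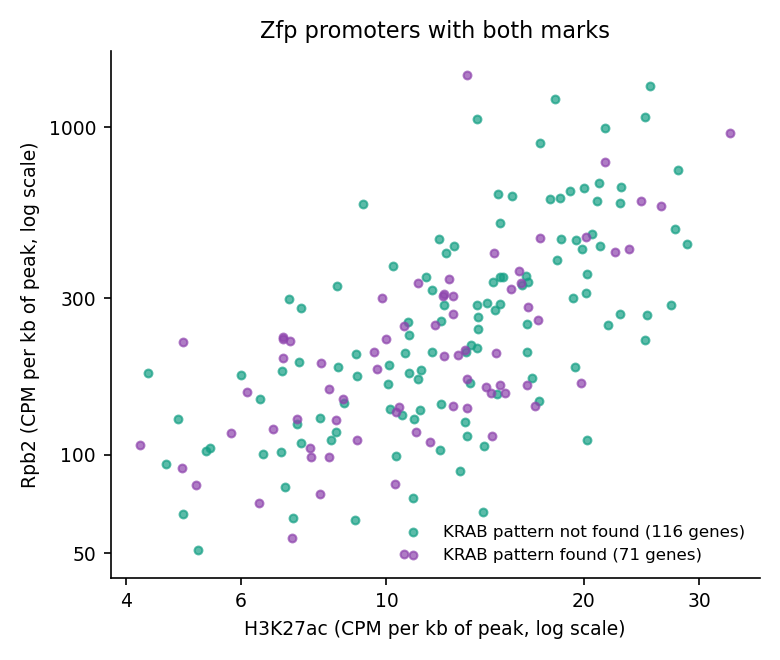
Rpb2 level (y axis) against H3K27ac level (x axis), both in CPM per kb of peak on log scales and averaged over 4 libraries. Each point is 1 Zfp gene with both marks, coloured by the KRAB pattern; the 5 genes without an examined protein are not drawn, and levels of both marks rise together.

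Zfp genes with a known role were looked up from a list of 30. Promoter peaks were found at 23 of them for Rpb2 and at 22 for H3K27ac, and 6 had neither: Zfp57, which protects imprinted methylation, Zfp42, the pluripotency marker Rex1, Zfp423 and Zfp521, regulators of fat and blood progenitors, Zfp462 and Zfp91. Among guardians of imprints and transposable elements, Zfp809, which recognizes a retroviral primer binding site, had an Rpb2 count of 92 in the library labelled WT female, 126 in WT male, 405 in KO female and 175 in KO male, or 576 CPM per kb. Its H3K27ac level of 26.2 was at percentile 97.2. Zfp445, the other known protector of imprints, had 23, 23, 111 and 40 Rpb2 reads and 98.5 CPM per kb, at percentile 6.96. Zfp708, which maintains methylation at a family of repeats, had 20, 8, 88 and 51 reads and 103.0 CPM per kb. Zfp932, a repressor of endogenous retroviruses, had no Rpb2 peak and H3K27ac reads of 16, 0, 33 and 22.

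Other genes of the list without the KRAB pattern covered a wide range of levels. Zfp143, an activator bound at many promoters, had 179, 174, 596 and 306 Rpb2 reads (993 CPM per kb) and an H3K27ac level of 21.6. Zfp706, linked to the exit from pluripotency, had 1058 CPM per kb of Rpb2, Zfp219 had 893 and Zfp703, a corepressor amplified in breast cancer, 608. Zfp281, a regulator of pluripotency, had 281 and Zfp148, which binds GC-rich promoters, 114. None of these 6 had an unadjusted p under 0.05 in either mark. Over the whole list, Zfp217 and Zfp131 were the only genes with such a p, both for Rpb2, which is 2 of 23 genes beside 10.4% of all genes.

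Rpb2 reads at Zfp promoters were compared between KO and WT in a fit of all 10125 peaks near a TSS. The test was edgeR's quasi-likelihood test, n = 2 pools against 2. No Zfp peak had an adjusted p under 0.05, and neither did any other peak (0%). Without adjustment, 14 of 242 Zfp peaks (5.79%) were higher and 13 (5.37%) lower in KO with a p under 0.05, against 4.42% and 6.13% of all peaks. Both KO pools lay above both WT pools at 60 Zfp peaks (24.8%) and below them at 46 (19.0%), against 21.7% and 20.4% of all peaks. KO over WT had a median log2 fold change of 0.04 at Zfp peaks (quartiles −0.32 and 0.49) and 0.02 at all peaks; with all 26706 peaks of the table in the fit, these became −0.09 and −0.11. Fold changes of the 242 peaks ran from −2.55 to 3.04. WT pools differed from each other by more than 2-fold at 23.1% of Zfp peaks and KO pools at 12.0%, on CPM plus 1. Over all peaks near a TSS, it was 18.1% for WT and 10.2% for KO.

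At the Zfp peak with the lowest p, the promoter of Zfp326, both KO pools were below both WT pools. This peak was called in the WT peak list alone, so its direction is in part set by that choice. Zfp326 is a nuclear RNA-binding protein that links RNA polymerase II elongation to splicing. Its peak (chr5:105876503-105876703, 35 bp from the TSS) had a count of 45 in the library labelled WT female, of 152 in WT male, 43 in KO female and 35 in KO male, which is 112.4 ± 76.0 CPM in WT (SD, n = 2 pools) and 19.6 ± 7.57 in KO. The WT pools differed from each other by more CPM than the means of WT and KO did. On the log2 scale, KO differed from WT by −2.55 (SE 0.55), with an adjusted p of 0.116. It passed the threshold in some alternatives: with DESeq2's Wald test (adjusted p = 0.0225, where 0.198% of all peaks passed) and with peaks of at least 10 reads in every library (adjusted p = 0.0449, 0.0752% of peaks). The log2 fold change of this peak also moved with the pool left out. Without WT male it was −1.60, and without the library labelled WT female −3.12. Without KO female it was −2.16, and without KO male −2.98.

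Zfp217, which works with the corepressor CtBP, was the other gene of lower Rpb2 among the 8 peaks of lowest p. Its peak (chr2:170131384-170131761) had counts of 45 and 64 for WT against 49 and 32 for KO, although the KO libraries were deeper, which is 64.3 ± 8.02 CPM in WT and 19.5 ± 4.66 in KO (SD, n = 2 pools each). This is a log2 difference of −1.73 (SE 0.57), adjusted p = 0.272. H3K27ac at the same promoter, an acetylated region of 8205 bp, held 423, 1161, 2431 and 2169 reads, and its pools overlapped between genotypes.

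The remaining 6 peaks were higher in both KO pools. Zfp69, associated with diabetes in mice, had a further peak in an intron (811 bp from the TSS), where the WT pools had 5 and 4 reads against 106 and 67 in the KO pools (log2 fold change 2.91, SE 0.79, adjusted p = 0.197). Its strongest peak, 200 bp before the TSS, went the other way, from 256 and 269 WT reads to 680 and 347 KO reads, which is 313.7 ± 27.9 CPM against 235.8 ± 15.8 (SD, n = 2 each; log2 fold change −0.41, SE 0.23, adjusted p = 0.55). Both KO pools were thus above WT in the intron and below it at the start site. Zfp608, a regulator of thymocyte development, had 11 and 0 WT reads against 154 and 89 KO reads at 576 bp from its TSS (log2 fold change 3.04, SE 0.89, adjusted p = 0.224). Without WT male it was 1.98, and without the library labelled WT female, which leaves 0 WT reads, the fitted value of 9.67 depends on the prior count. The peak at its TSS, with 67, 84, 185 and 137 reads, had a log2 fold change of −0.19. Zfp668, linked to the DNA damage response, had 26 and 38 WT reads against 274 and 181 KO reads (1.53, SE 0.44, adjusted p = 0.214).

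For Zfp994, a KRAB protein of the chromosome 17 cluster whose promoter is printed above, the WT pools had 10 and 31 reads and the KO pools 227 and 113 (1.71, SE 0.55, adjusted p = 0.267). Zfp729b, in the chromosome 13 cluster, had 9 and 3 WT reads against 85 and 66 KO reads (2.33, SE 0.81, adjusted p = 0.303). Zfp131, a BTB zinc finger protein, had 19 and 15 WT reads against 190 and 87 KO reads (1.60, SE 0.57, adjusted p = 0.314). Without the library labelled WT female, the fold change was 3.48 at Zfp729b and 1.19 at Zfp994, and without WT male it was 1.66 and 2.57. None of these 6 passed the threshold with all 4 pools. Of the 6, all but Zfp994 were called in the KO peak list alone.

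**Figure D4:**
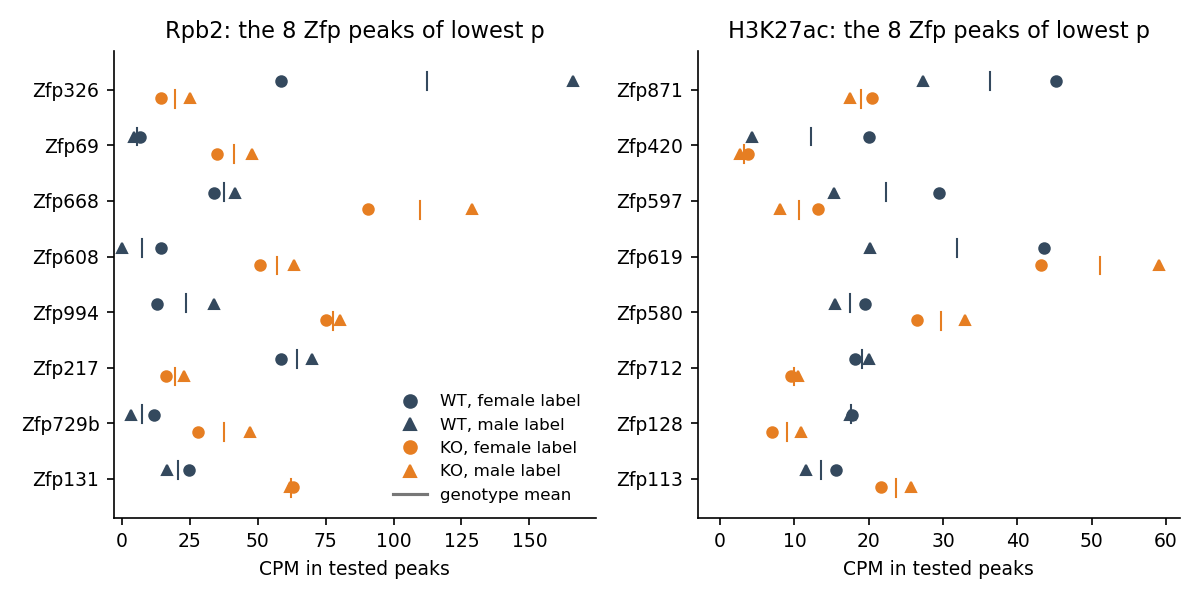
CPM in tested peaks (x axis) of the 8 Zfp peaks of lowest p for Rpb2 (left) and H3K27ac (right), 1 gene per row, with each pool as a point (circles, female label; triangles, male label) and the genotype mean as a short line. KO pools lie apart from WT pools in all 8 Rpb2 rows and in 7 of 8 H3K27ac rows, Zfp619 being the exception.

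Which list a peak came from moved with its fold change. The authors kept peaks reproducible in WT or in KO and merged the lists, and the KO libraries of Rpb2 were deeper in sum. Of the member Rpb2 peaks, 112 (46.3%) came from both lists, 99 (40.9%) from the KO list alone and 31 (12.8%) from the WT list alone, against 55.4%, 35.9% and 8.67% of all peaks near a TSS. Their median log2 fold changes were −0.04, 0.41 and −0.84, against −0.06, 0.33 and −0.71 for all peaks. Since a peak on 1 list alone was chosen for being seen in that genotype, its direction is in part set by that choice. Of the 14 Zfp peaks higher in KO without adjustment, 10 came from the KO list alone, and of the 13 lower, 8 came from the WT list alone. For H3K27ac, 225 member peaks (79.2%) came from both lists, 57 (20.1%) from the KO list alone and 2 (0.704%) from the WT list alone. Over all H3K27ac peaks near a TSS, it was 77.7%, 17.2% and 5.17%. The median log2 fold change was −0.04 for both lists and 0.28 for the KO list alone. Over all peaks near a TSS, these were 0.05 and 0.34.

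**Figure D5:**
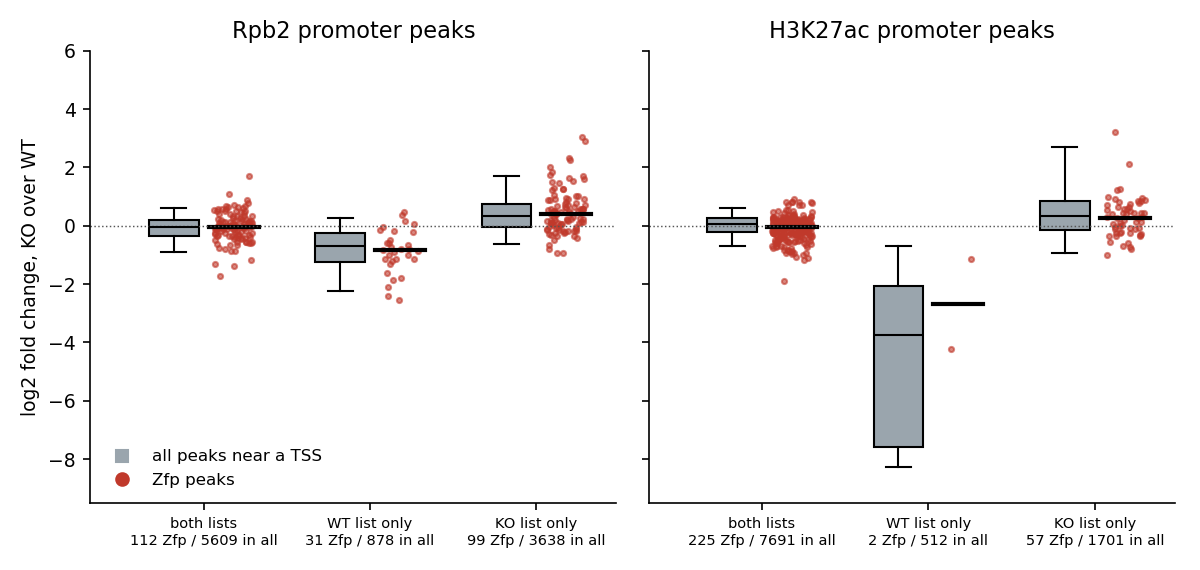
Log2 fold change of KO over WT (y axis) for peaks called in both genotypes, in WT alone or in KO alone (x axis), for Rpb2 (left) and H3K27ac (right). Grey boxes show all peaks near a TSS (box, quartiles; whiskers, 5th to 95th percentile) and red points Zfp peaks with their median as a line; Zfp medians for Rpb2 are −0.04, −0.84 and 0.41.

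Leaving out a pool moved the number of Zfp calls for Rpb2. Each such fit leaves 1 genotype with a single pool, which is assumed to vary like the other genotype. WT male had 0 reads at the Rpb2 peaks of Zfp53 and Zfp105 and at the Zfp608 peak 576 bp from its TSS. Without the library labelled WT female, their fitted log2 fold changes of 8.07, 8.42 and 9.67 therefore depend on the prior count. With all 4 pools, these were 0.50 at Zfp53, where the pools overlapped, 2.25 at Zfp105 and 3.04 at Zfp608. Without the library labelled WT female, 8 Zfp peaks were called (2.34% of all peaks were): 2 lower in KO, at Zfp326 and Zfp428, and 6 higher, at Zfp105, Zfp35, Zfp53, Zfp608, Zfp69 and Zfp729b. Without WT male there were 2, Zfp87 and Zfp994, both higher in KO (1.04% of all peaks). Without KO female, the 1 call was Zfp563 (0.138%), and without KO male it was Zfp326 (0.168%). No Zfp peak was called in all 4 of these fits.

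The Rpb2 pools were also compared by position, with 1 peak per gene. In clusters, both KO pools lay above WT at 33 of 115 genes (28.7%) and below at 16 (13.9%), with a median log2 fold change of 0.12. Outside clusters, it was 18 of 93 genes (19.4%) above and 23 (24.7%) below, with a median of −0.07. Over all 8350 genes, it was 21.2% above and 20.3% below. For H3K27ac, the median was −0.07 in clusters and 0.03 outside. Of the Rpb2 peaks compared, those of the KO list alone made up 49.6% in clusters and 25.8% outside. Among genes whose Rpb2 peak was on both lists, 15 of 46 in clusters were above and 4 below. Outside clusters, 5 of 57 were above and 16 below. Of all Rpb2 peaks near a TSS on both lists, 16.1% were above and 23.6% below. For Rpb2, the chromosome 7 cluster from Zfp84 to Zfp146 had a median of 0.39. The chromosome 17 cluster from Zfp160 to Zfp13 had a median of 0.17 and the chromosome 13 cluster one of 0.13. This contrast was chosen after its values were seen, was not tested, and no gene in it passed the threshold.

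For H3K27ac, the same comparison over 55798 peaks gave no Zfp call and no call among all 9904 tested peaks near a TSS. The 13 peaks that passed (0.0233% of all) lay elsewhere. Without adjustment, 3 of 284 Zfp peaks (1.06%) were higher and 5 (1.76%) lower in KO, against 2.16% and 1.39% of all peaks near a TSS. Both KO pools lay above WT at 42 Zfp peaks (14.8%) and below at 36 (12.7%), against 20.2% and 12% of all peaks near a TSS. The median log2 fold change was −0.01 at Zfp peaks, 0.05 at all peaks near a TSS and −0.21 at all peaks. It differed with the sex label: between the pools labelled female it was −0.14 and between the male pools 0.15, against −0.01 and 0.11 for all peaks near a TSS. WT female is the library in which few reads fell in peaks.

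The 8 Zfp promoters with the lowest p for H3K27ac all had an adjusted p of 0.811. Acetylation was lower in both KO pools at Zfp871, Zfp420, Zfp597, Zfp712 and Zfp128. Zfp871, whose promoter is printed above, held 160 reads in WT female, 171 in WT male, 269 in KO female and 217 in KO male, which is 36.3 ± 12.6 CPM in WT and 18.9 ± 2.14 in KO (SD, n = 2 pools each). Its log2 fold change was −0.93 (SE 0.34). Zfp420 held 71, 27, 49 and 34 reads (−1.90, SE 0.76) and Zfp597 held 104, 96, 173 and 101 (−1.06, SE 0.42). At these 3 the WT female pool, with few reads in peaks, stood above WT male, and without it the log2 fold changes were −0.54, −0.42 and −0.54. Without WT male they were −1.26, −2.63 and −1.47. The pools of a genotype lay closer at Zfp712, with 64 and 125 WT reads against 125 and 130 KO reads, or 19.0 ± 1.34 CPM against 9.97 ± 0.662 (−0.93, SE 0.45), and Zfp128 had 63, 109, 92 and 136 reads (−0.97, SE 0.48). Higher values were found at Zfp580 (69, 97, 349 and 411 reads, 0.77, SE 0.36) and Zfp113 (55, 72, 285 and 319 reads, 0.81, SE 0.40), where both KO pools exceeded both WT pools. At Zfp619, with 154, 126, 568 and 735 reads (0.70, SE 0.31), the pools overlapped, and the fold change was 1.34 without WT female and 0.23 without WT male.

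Here too single pools decided the number of calls. The shares given beside the calls are over all peaks, most of them away from a TSS, and were not taken over peaks near a TSS. Without WT female, 4 Zfp peaks were called (Zfp184, Zfp263, Zfp59 and Zfp619), all higher in KO, beside 1.53% of all peaks. Without WT male there were 17, of which 6 were higher in KO, beside 14.8% of all peaks, a fit in which the library with few reads in peaks alone stood for WT. Leaving out a KO pool gave none, with 3 Zfp peaks (without KO female) and 0 (without KO male) at an unadjusted p under 0.05. Zfp263 was called in both fits that left out a WT pool. Its reads were 316 in WT female, 194 in WT male, 817 in KO female and 730 in KO male, and after normalization the WT female pool lay above both KO pools and the WT male pool below them. No Zfp gene had pools apart and a change of at least 2-fold in both marks. Across the 192 genes with both, the fold changes of the marks had a Spearman's rho of −0.01, and 0.04 over all 6680 genes.

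The corepressors that Zfp proteins work with were examined from a list of 28. Promoter peaks were present at 23 for Rpb2 and 24 for H3K27ac, and none passed the threshold in either mark. Trim28 itself, the partner of the KRAB box, had Rpb2 counts of 145 and 256 for WT and of 506 and 250 for KO, or 873 CPM per kb, at percentile 90.3 of all genes. Both KO pools were below WT after normalization (log2 difference −0.45, SE 0.27, adjusted p = 0.601). Setdb1, its histone methyltransferase, had no Rpb2 promoter peak and 17, 40, 115 and 90 H3K27ac reads. Without adjustment, 2 of the 23 had a p under 0.05 for Rpb2, and both were lower in KO: the histone deacetylase Hdac2, with 22 and 57 WT reads against 51 and 12 KO reads (−1.81, SE 0.70, adjusted p = 0.356), and the histone methyltransferase Ehmt2, with 53, 102, 122 and 67 (−1.04, SE 0.45, adjusted p = 0.41). That is 8.70% of 23 genes, against 10.4% of all genes with a p under 0.05 for Rpb2. For H3K27ac, none of the 24 had such a p, against 3.62% of all genes.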

How the data were processed

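ChIP-seq for Rpb2 and H3K27ac was analysed in 2 WT and 2 KO pools of sorted microglia. The deposited tables give, for each peak, the whole-number count of reads per library that the authors obtained, without normalization, together with the nearest gene and its distance. Reads of 51 nt were mapped to mm10; the submitters' processing notes name Bowtie2 and HOMER, and reproducible peaks of each genotype were merged. The input libraries (4) were not used here, and 0 columns of per-sample values were left unmapped.

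Counts were fitted with edgeR 4.0.16 (TMM normalization, quasi-likelihood test, Benjamini-Hochberg adjustment, threshold 0.05, R 4.3.3), over peaks within 1000 bp of a TSS for Rpb2 and over all peaks for H3K27ac, keeping peaks with a mean of at least 4 reads in 1 genotype; this removed 64 H3K27ac peaks. DESeq2 1.42.0, other normalizations, filters and sets of pools were alternatives. With 2 pools against 2, an exact permutation test of a single peak cannot pass 0.05, so none was made. On simulated counts with 4-fold changes, 133 of 200 changed peaks (66.5%) were recovered for Rpb2 with 9 false calls among 10125 peaks, and 57 of 176 (32.4%) for H3K27ac with 101 false calls among 50444, so most simulated H3K27ac calls were false. Reads carry no molecular identifiers, so a count of 0, which allows 3 reads, limits counting error only (0.0677 to 0.289 CPM of all reads of a library).

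Genes were named by rule: per mark, the 8 member peaks of lowest p and the 5 highest and 5 lowest levels, plus 30 genes of known role and 28 corepressors. Other genes were named where a small count needed them, after their values were seen. Members and lists were chosen with earlier results of these data known. Zinc fingers and the KRAB pattern were counted in GENCODE protein translations, promoters came from RefSeq (GRCm38.p6), and nothing shows that a pool's spread is more than that between these samples.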

Additional observations from a re-analysis of the deposited data

Results flagged for a closer look

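The median H3K27ac log2 ratio of KO over WT at Zfp promoter peaks was −0.14 between the pools labelled female and 0.15 between the male pools. For Rpb2, Zfp664 had a log2 ratio of −1.07 between the female-labelled pools and 3.56 between the male pools, with 34, 1, 62 and 38 reads in the library labelled WT female, WT male, KO female and KO male. For H3K27ac, Zfp772 had −1.24 and 1.45, with 3, 7, 3 and 43 reads. In each case the pools of the 2 sex labels moved in opposite directions. There is 1 pool per sex label and genotype, so the difference was not tested. For H3K27ac, sex and pool cannot be told apart. For Rpb2, the library labelled WT female held 136 Y-linked reads, while KO female held 0. The sex of that WT library is therefore in doubt, and the Zfp664 ratios cannot be read as a comparison by sex.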

How the results depend on the processing

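With edgeR and all 4 pools, 0 Rpb2 peaks passed the threshold, and 448 were higher and 621 lower in KO at an unadjusted p under 0.05. DESeq2's Wald test called 20 peaks, of which 1 was a Zfp peak (Zfp326), and requiring at least 10 reads in every library called 7, again with 1 Zfp peak. Leaving out 1 pool called 14 to 237 Rpb2 peaks and 1 to 8 Zfp peaks. With all peaks in the fit, 2 were called and the Zfp median log2 fold change moved to −0.087, beside −0.11 for all peaks near a TSS. For H3K27ac, where 13 peaks were called, DESeq2 called 240, a minimum of 10 reads 1, and a fit of peaks near a TSS only 0 (in the fit of all peaks, 214 peaks near a TSS were higher and 138 lower at an unadjusted p under 0.05). Leaving out 1 pool called 2 to 8157 peaks and 0 to 17 Zfp peaks. The cause was not tested.

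The sex label shared by pools did not pair them, since deviations of same-label pools correlated at −0.00047 for Rpb2 and −0.00027 for H3K27ac. With the label as a replicate block, 24 Rpb2 peaks and 1 Zfp peak (Zfp326, adjusted p = 0.0117) were called, and 12 H3K27ac peaks with 0 Zfp peaks. Of the log2 fold changes recomputed for peaks named by lowest p, 160 kept their direction and side of the threshold and 13 passed it with the same direction. All 100 recomputed levels of genes named for their level stayed within 1 SD. Fold changes of other peaks named for level or role changed sign in 28 of 312 values for Rpb2 and 50 of 336 for H3K27ac, where none had passed the threshold. Without a WT pool, 2 of these values passed it for Rpb2 (Zfp53 and Zfp105) and 7 for H3K27ac, Zfp263 in opposite directions (0.95 without WT female and −0.57 without WT male). At the Rpb2 peaks of Zfp53 and Zfp105, WT male had 0 reads. Whether depth or the low share of reads in peaks of H3K27ac WT female limited the calls was not tested.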
